A study of Mus musculus with 20 samples.

Results

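The peaks of Setdb1 and of Kap1 in old mouse liver were compared along chromosomes 1 to 19 of mm10 (GRCm38). Every peak of the old list of either factor on these chromosomes was a member, which gave 13678 Setdb1 and 21390 Kap1 peaks, 35068 of the 175329 peaks in the 6 lists of the series. The series measured H3K14ac, Setdb1 and Kap1 by chromatin immunoprecipitation and sequencing (ChIP-Seq). It also holds sequential ChIP-Seq of H3K14ac and H3K9me3 at both ages, which was not used here. The tissue was snap-frozen whole liver of wild type male C57BL/6 mice aged 3 months (young) or 21 months (old). No group had a treatment or an altered allele. The old Setdb1 list was called on the merged reads of 3 livers and the old Kap1 list on those of 2 livers, at different q-value limits. Each list holds positions only, with no height, score or count, so the depth behind a peak is unknown. With 1 pooled list per factor no spread between livers can be given and nothing was tested. The numbers of peaks of the 2 lists are not comparable as amounts of bound factor, and only the distribution of each list was compared. Intervals are 95% Wilson intervals and cover counting error only. The lists come from bulk tissue, in which fewer cells that carry a site and less binding per cell cannot be told apart.

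Setdb1 is a methyltransferase that places H3K9me3, a histone mark of silent chromatin. Kap1, encoded by Trim28, is a corepressor that is brought to DNA by zinc finger proteins with a KRAB domain, and it is known to recruit Setdb1 and heterochromatin proteins. Their best known targets are retrotransposons and the last exons of zinc finger genes, and Setdb1 also carries Tudor domains that can bind histone tails with both methylation and acetylation.

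The sequences that show the kinds of site found are given 5′ to 3′ on the plus strand of GRCm38. In the first 5, capitals mark the bases that the Setdb1 and the Kap1 peak share, and lower case the rest of the Setdb1 peak. The first 4 are the sites at which both peaks had the commonest width of their list, lay outside exons and shared bases with an old H3K14ac peak. They lie between genes at chr1:141010559-141010758, in an intron of the long RNA gene C230088H06Rik at chr4:147414075-147414274, in an intron of Mdga2 at chr12:67059337-67059536 and in an intron of Wnk2 at chr13:49037213-49037412.
site on chromosome 1: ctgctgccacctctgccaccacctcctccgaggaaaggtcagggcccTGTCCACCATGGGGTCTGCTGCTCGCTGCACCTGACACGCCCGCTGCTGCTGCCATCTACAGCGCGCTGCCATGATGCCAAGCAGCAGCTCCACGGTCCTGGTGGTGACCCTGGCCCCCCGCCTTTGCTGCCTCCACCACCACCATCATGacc
site on chromosome 4: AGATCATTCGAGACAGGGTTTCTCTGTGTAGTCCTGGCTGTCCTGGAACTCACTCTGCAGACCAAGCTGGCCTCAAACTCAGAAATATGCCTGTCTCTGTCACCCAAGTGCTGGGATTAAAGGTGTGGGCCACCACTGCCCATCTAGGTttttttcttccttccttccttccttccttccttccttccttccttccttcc
site on chromosome 12: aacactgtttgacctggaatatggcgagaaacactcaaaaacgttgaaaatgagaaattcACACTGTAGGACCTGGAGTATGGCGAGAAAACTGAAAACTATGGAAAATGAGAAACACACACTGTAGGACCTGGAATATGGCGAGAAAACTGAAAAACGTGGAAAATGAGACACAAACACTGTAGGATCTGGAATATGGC
site on chromosome 13: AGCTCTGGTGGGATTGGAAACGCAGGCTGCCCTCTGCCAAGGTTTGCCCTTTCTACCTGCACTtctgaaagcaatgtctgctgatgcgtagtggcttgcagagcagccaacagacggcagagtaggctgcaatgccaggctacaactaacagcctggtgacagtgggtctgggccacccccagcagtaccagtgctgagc

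The site on chromosome 12 is built of a short unit that recurs, with the letters CTGGAATATGGC found 3 times in 200 bp. The unit is that of the mouse major satellite, the tandem repeat of pericentromeric chromatin. On either strand this word was held by 3 of 13678 Setdb1 peaks and by 21 of 21390 Kap1 peaks. The word was read from this site, which is itself among the peaks counted. Of 47925 windows set every 50 kb, 1 held it at 200 bp and 0 at 150 bp. Peaks of all widths were searched, up to 2769 bp for Setdb1 and 15870 bp for Kap1. Peaks and windows are thus not of matched length. Of the bases of the site on chromosome 4, 100% are soft-masked in the reference as repeats, whereas the share is 0% at the site on chromosome 13 and 18.5% at that on chromosome 1. The fifth sequence shows a site of both factors inside a gene of a receptor family, the intron of the vomeronasal receptor gene Vmn2r60 at chr7:42159896-42160095, which is 100% soft-masked.
site in Vmn2r60: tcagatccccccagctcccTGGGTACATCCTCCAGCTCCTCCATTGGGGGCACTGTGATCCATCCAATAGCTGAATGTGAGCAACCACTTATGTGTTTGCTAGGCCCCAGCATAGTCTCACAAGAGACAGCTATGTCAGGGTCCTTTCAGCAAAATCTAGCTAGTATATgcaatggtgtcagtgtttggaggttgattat

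The last 3 sequences, all in lower case, each belong to 1 factor. They are a Setdb1 peak from the region densest in Setdb1 among those poor in Kap1 (chr4:70478736-70478935), a Kap1 peak among the defensin genes (chr8:21494750-21494899) and a Kap1 peak in an intron of the zinc finger gene Zfp985 (chr4:147570894-147571043). Soft-masked bases make up 29% of the first, 100% of the second and 63.3% of the third.
Setdb1 peak on chromosome 4: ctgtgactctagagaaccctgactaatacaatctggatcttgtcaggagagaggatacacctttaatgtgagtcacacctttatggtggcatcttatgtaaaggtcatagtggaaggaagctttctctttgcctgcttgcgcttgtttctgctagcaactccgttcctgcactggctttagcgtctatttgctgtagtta
Kap1 peak among the defensin genes: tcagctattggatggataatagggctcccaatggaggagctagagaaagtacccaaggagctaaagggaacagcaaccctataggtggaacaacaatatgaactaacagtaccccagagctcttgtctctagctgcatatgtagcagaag
Kap1 peak in Zfp985: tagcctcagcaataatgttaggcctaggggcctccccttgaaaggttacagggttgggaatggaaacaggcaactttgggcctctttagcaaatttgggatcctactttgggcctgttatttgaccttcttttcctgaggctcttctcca

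Setdb1 peaks were spread more evenly over the genome, and Kap1 peaks were gathered in fewer regions. Per Mb of sequence there were 5.71 Setdb1 and 8.93 Kap1 peaks. Between chromosomes, the density of Setdb1 ran from 3.76 peaks per Mb on chromosome 11 to 6.61 on chromosome 6, a range of 1.76 times. That of Kap1 ran from 3.44 on chromosome 11 to 15.02 on chromosome 7, a range of 4.36 times. Chromosome 11 was thus the poorest in both factors, at 0.658 times the mean density of Setdb1 (446 peaks) and 0.386 times that of Kap1 (409 peaks). In bins of 1 Mb, of which 2403 had at most 50% undetermined bases, the mean was 5.68 Setdb1 peaks (SD 4.09, median 5) and 8.62 Kap1 peaks (SD 16.7, median 4). The fullest bin held 30 Setdb1 or 220 Kap1 peaks. The densest 240 bins held 25.03% of the Setdb1 peaks and 53.4% of the Kap1 peaks, and the densest 24 bins 3.68% and 13.3%. No Setdb1 peak lay in 144 bins and no Kap1 peak in 449 bins. The curve of peaks held by the densest bins shows this difference.

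**Figure D1:**
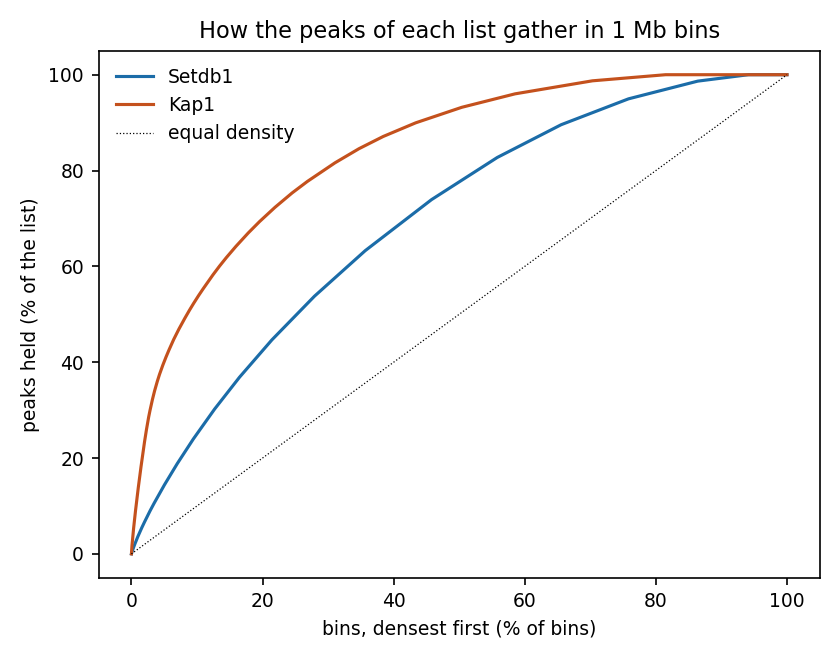
Share of the peaks of each list (vertical axis, %) held by the 2403 bins of 1 Mb taken from the densest on (horizontal axis, % of bins); the dotted line is equal density. The Kap1 curve rises faster, with 53.4% of the peaks in the densest 240 bins against 25.03% for Setdb1.

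Kap1 peaks also lay close to one another. Another Kap1 peak was within 10 kb of 48.9% of Kap1 peaks (48.2% to 49.6%), with a median distance of 10.6 kb. Another Setdb1 peak was within 10 kb of 15.8% of Setdb1 peaks (15.2% to 16.4%), with a median of 45.6 kb. The longer Kap1 list makes short distances more frequent, and its mean spacing was 112 kb against 175 kb for Setdb1. Nearly all Setdb1 peaks had 1 width, 98.2% of them 200 bp, whereas 85.7% of Kap1 peaks were 150 bp wide and 3058 were wider.

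The densities of both factors rose together across bins, weakly. Over the 2403 bins Pearson's r was 0.25 and Spearman's rho 0.29. Bins are not replicates, and both factors shared a relation to base composition, with a rho with GC content of -0.33 for Setdb1 and -0.32 for Kap1. Within bins of low, middle and high GC content r was 0.23, 0.25 and 0.22. In the 449 bins without Kap1 the mean was 4.51 Setdb1 peaks (SD 3.54), and in the 142 bins with 20 to 49 Kap1 peaks it was 9.35 (SD 5.37). In the 77 bins with 50 or more Kap1 peaks the mean of Setdb1 was 8.31 (SD 5.29). The lists of young liver gave an r of 0.20 between the factors. Kap1 density in old liver followed that in young liver more closely than Setdb1 density did, with r of 0.88 and 0.32, and rho of 0.46 and 0.29. Against old H3K14ac, the r of Kap1 was 0.60 and its rho 0.14, whereas Setdb1 gave 0.11 and 0.04.

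A bin was called rich in a factor from 2 times the mean of its list on (12 Setdb1 or 18 Kap1 peaks) and poor up to 0.5 times the mean (2 Setdb1 or 4 Kap1 peaks). Kap1-rich bins numbered 255 and Setdb1-rich bins 222. Of the 2403 bins, 35 (1.46%) were called rich in Kap1 and poor in Setdb1, 54 (2.25%) rich in Setdb1 and poor in Kap1, and 70 (2.91%) rich in both. With limits of 3 times the mean and of the mean divided by 3, the 3 classes numbered 11, 4 and 12, and in bins of 500 kb 106, 242 and 191. The 255 Kap1-rich bins held 54.7% of the Kap1 peaks and 16.6% of the Setdb1 peaks.

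**Figure D2:**
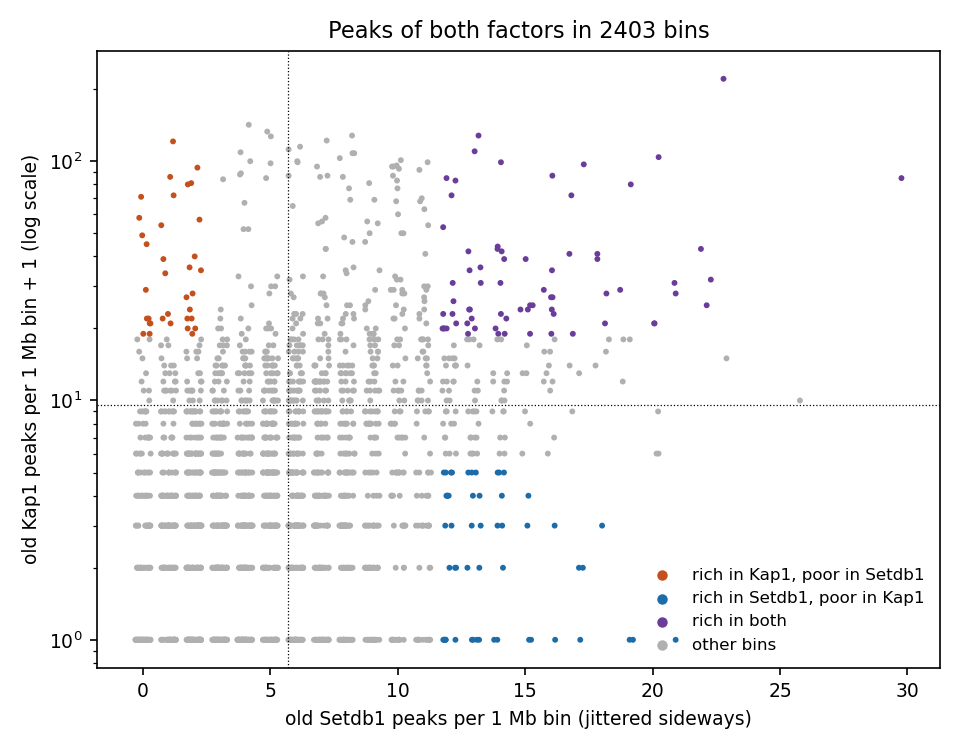
Each point is a bin of 1 Mb, with its old Setdb1 peaks on the horizontal axis (jittered) and its old Kap1 peaks plus 1 on the vertical log axis; dotted lines are the means. Orange points are the 35 bins rich in Kap1 and poor in Setdb1, blue points the 54 bins of the opposite kind and purple points the 70 bins rich in both.

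The bin with the most Kap1 peaks, chr4:147000001-148000000, held 220 of them and 23 Setdb1 peaks, 25.5 and 4.05 times the means. It contains a cluster of 9 zinc finger genes, among them Zfp991, Zfp985, Zfp984 and Zfp933, and Rex2, and it also held 137 old H3K14ac peaks. The young lists gave 240 Kap1 and 34 Setdb1 peaks there. Chromosome 12 followed with 141 Kap1 and 4 Setdb1 peaks at chr12:18000001-19000000, which holds 1 protein-coding gene, 5730507C01Rik. The Obox homeobox genes, known from oocytes and early embryos, lie in the third bin, chr7:15000001-16000000, with 132 Kap1 and 5 Setdb1 peaks. The fourth, chr6:123000001-124000000, spans C-type lectin genes (Clec4a2, Clec4e) and 7 vomeronasal type 2 receptor genes, with 127 Kap1 and 13 Setdb1 peaks. Of these 4 bins, 2 were thus rich in both factors and the other two lay below the Setdb1 mean. The bin at the end of chromosome 18, chr18:90000001-90702639, where 39.7% of the Mb is undetermined or absent, tied with the fourth at 127 Kap1 peaks and had 8 of Setdb1.

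The fullest Setdb1 bin, chr10:58000001-59000000, held 30 Setdb1 and 84 Kap1 peaks. It contains Duxf3, a member of the Dux double homeobox family, and Edar, the receptor of ectodysplasin, in whose body 6 Setdb1 and 6 Kap1 peaks lay. The next bin, chr15:56000001-57000000, has Has2, a hyaluronan synthase, as its 1 protein-coding gene, and held 26 Setdb1 and 9 Kap1 peaks. Class I major histocompatibility genes of the H2-T and H2-M groups and 6 Trim genes fill chr17:36000001-37000000, which held 23 Setdb1 and 14 Kap1 peaks. Bins at chr1:117000001-118000000, chr7:10000001-11000000 (vomeronasal receptor genes and Zscan4b) and chr10:57000001-58000000 (Hsf2, Fabp7) held 22 Setdb1 peaks each, with 24, 42 and 31 Kap1 peaks. All of these Setdb1 bins lay above the Kap1 mean.

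Among the bins rich in Kap1 and poor in Setdb1, the leading one was the alpha and beta defensin cluster at chr8:21000001-22000000, with 120 Kap1 peaks and 1 Setdb1 peak. Defensins are antimicrobial peptides of epithelia, and 31 of the 40 protein-coding genes of this bin are named as defensins. A second zinc finger cluster, chr4:146000001-147000000 with Zfp987, Zfp600 and Zfp981, held 93 Kap1 and 2 Setdb1 peaks with 33.2% of its bases undetermined, which lowers both counts, beside the bin that was rich in both. The imprinted Snrpn and Ube3a region, chr7:59000001-60000000, held 80 and 2. The Dynlt1 dynein light chain genes (chr17:6000001-7000000) lay in a bin with 79 and 2, and Vmn2r29 to Vmn2r36 with Zfp418 and Zfp772 in a bin with 70 and 0 (chr7:7000001-8000000). In the young lists, 28 of the 35 bins were again relatively denser in Kap1 than in Setdb1, as were 214 of the 255 Kap1-rich bins and 29.8% of all bins, and 15 met the same limits, which 23 of all 2403 bins (0.957%) met in young liver. The median young density in them was 2.04 times the mean for Kap1 and 0.342 times for Setdb1.

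The bins rich in Setdb1 and poor in Kap1 lay elsewhere. The first, chr4:70000001-71000000, held 21 Setdb1 peaks and 0 Kap1 peaks around Cdk5rap2, a centrosome protein, and Megf9. The Fbxw cluster of F-box genes with Map4 and Cdc25a (chr9:109000001-110000000) held 19 and 0, and the bin of Mc4r, the melanocortin 4 receptor, and Pmaip1 (chr18:66000001-67000000) also 19 and 0. The developmental gene Tbx15 and Spag17 lie in a bin with 17 and 0 (chr3:99000001-100000000). The bin chr6:68000001-69000000, with 49 immunoglobulin kappa segments, held 17 Setdb1 peaks and 1 Kap1 peak. The same limits were met in the young lists by 10 of all 2403 bins (0.416%) and by 0 of the 54, too few to read a difference from. Of the 54 bins, 34 were relatively denser in Setdb1 than in Kap1, no larger a share than the 70.2% of all bins, and the medians of their young densities were 1.00 and 0.809 times the means. Single bins departed from these, with 52 young Kap1 peaks in the Fbxw bin and 10 young Setdb1 peaks in that of Mc4r.

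Values of other kinds moved with these classes. Bins rich in Kap1 and poor in Setdb1 held a median of 13 old H3K14ac peaks and 10 protein-coding genes, against 5 and 6 over all bins. Bins rich in both held 14 and 10 and all Kap1-rich bins 14 and 8, so these values were not particular to the bins poor in Setdb1. Over all bins, the number of protein-coding genes and that of Kap1 peaks had an r of 0.04 and a rho of -0.11. Bins rich in Setdb1 and poor in Kap1 held medians of 5.5 and 5. In the former, 25.8% of Kap1 peaks (23.6% to 28.2%) had at least 50% of their 31-base words more than once in the genome, against 4.70% (4.30% to 5.13%) of Kap1 peaks outside Kap1-rich bins, 13.1% (12.5% to 13.7%) in all Kap1-rich bins and 11.2% (10.1% to 12.4%) in bins rich in both. For Setdb1 peaks in the bins rich in it and poor in Kap1 the share was 3.23% (2.18% to 4.76%), near the 3.37% of all Setdb1 peaks. Reads that align to a second copy were removed by the authors, and without peaks of repeated sequence, a setting added once the data had been seen, the classes numbered 36, 66 and 84 bins in place of 35, 54 and 70.

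By feature class, both factors lay above the share of bases in exons and between genes and below it in introns, and Kap1 alone lay above it at start sites. Start sites of transcription had 5.95% of Kap1 peaks within 1 kb (5.64% to 6.28%) and 4.09% of Setdb1 peaks (3.77% to 4.44%), and such windows make up 4.47% of the bases. Exons held 4.42% of Kap1 peaks (4.15% to 4.70%) and 3.40% of Setdb1 peaks (3.11% to 3.72%), against 3.07% of bases. Introns, 42.3% of bases, held 32.6% of Kap1 (32.0% to 33.3%) and 38.1% of Setdb1 peaks (37.3% to 38.9%). Most peaks of both factors lay between genes, 56.99% of Kap1 (56.3% to 57.7%) and 54.4% of Setdb1 (53.6% to 55.2%), against 50.1% of bases. Old H3K14ac, an activating mark, differed from both, with 34.7% of its peaks at start sites. With protein-coding genes only, the ratio of Kap1 at start sites to the share of bases was 1.126 in place of 1.33 and that of Setdb1 0.823 in place of 0.916. The factors also differed at pseudogenes. The bodies of unprocessed pseudogenes, which arise by gene duplication, held 3.07 times the Kap1 mean density and 1.18 times that of Setdb1. Those of processed pseudogenes, copies of spliced RNA, held 1.95 and 1.32 times.

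Gene families were read within their gene bodies and 10 kb on both sides, as peaks per Mb relative to the mean of each list. Over all 20807 protein-coding genes, 22.1% were called with a Setdb1 peak in this window, 23.3% with a Kap1 peak and 8.67% with both. Zinc finger genes by symbol, which include but are not limited to those with a KRAB domain, had 2.41 times the mean density of Kap1 (2.19 to 2.64, 441 peaks) and 1.02 times that of Setdb1 (0.857 to 1.22, 120 peaks). Of the 419 genes, 124 (29.6%) had Kap1, 93 (22.2%) had Setdb1 and 47 had both, close to the background for Setdb1 and above it for Kap1. Chromosome 4 alone gave 171 of the 441 Kap1 peaks, and without it the ratio was 1.66 for Kap1 and 0.975 for Setdb1. Zfp984 had 32 Kap1 and 4 Setdb1 peaks in its window, Zfp985 had 28 and 0, Zfp950 on chromosome 19 had 26 and 1, and Zfp936 on chromosome 7 had 23 and 3. Setdb1 was highest in number at Zfp804b, with 5 peaks beside 13 of Kap1. These counts are not divided by length, and Zfp804b is long, at chr5:6769010-7344756 against chr4:147553277-147585198 for Zfp985. Of the 268 Kap1 peaks inside zinc finger gene bodies 14.9% were in exons outside start sites, and of the 72 Setdb1 peaks 18.1%, where exons make up 12.1% of these bodies. H3K14ac was also dense at zinc finger genes, at 2.85 times its mean.

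**Figure D3:**
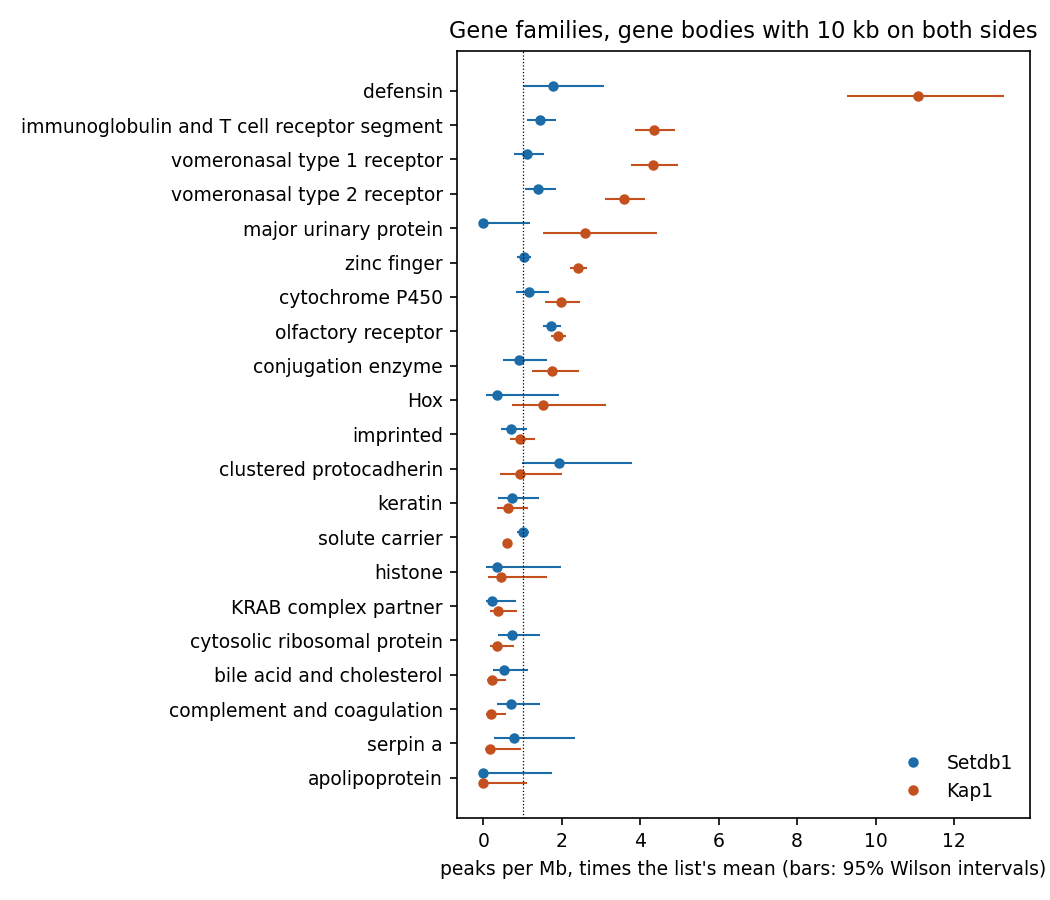
Peaks per Mb in the windows of each gene family relative to the mean of the list (horizontal axis, times the mean), with 95% Wilson intervals, for Setdb1 (blue) and Kap1 (orange). Kap1 exceeds Setdb1 at defensin, immunoglobulin and T cell receptor, vomeronasal and zinc finger genes, while both are close to each other at olfactory receptor genes.

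Among chemosensory receptors the totals of the factors were alike at olfactory genes and apart at vomeronasal genes, with differences between chromosomes. Olfactory receptor genes, silent in liver, were dense in both, at 1.73 times the mean for Setdb1 (1.52 to 1.98, 222 peaks) and 1.91 times for Kap1 (1.73 to 2.11, 382 peaks). Of the 1128 genes, 251 (22.3%) had Setdb1, 346 (30.7%) had Kap1 and 82 had both, and neighbours share peaks. Olfr822 on chromosome 10 had 12 Kap1 and 0 Setdb1 peaks, whereas Olfr1388 on chromosome 11 had 0 and 4. The olfactory windows of chromosome 11 had 12 Setdb1 and 3 Kap1 peaks, those of chromosome 10 had 5 and 70 and those of chromosome 13 had 0 and 18. Vomeronasal type 1 receptors, which detect pheromones, had 4.32 times the Kap1 mean (3.77 to 4.96, 203 peaks) and 1.10 times that of Setdb1 (0.783 to 1.54, 33 peaks). Without chromosome 7, which gave 144 of the 203 Kap1 peaks, the ratios were 2.60 for Kap1 and 1.06 for Setdb1. On chromosome 6, with 51 of the 208 genes, the order turned, at 0.668 for Kap1 and 1.17 for Setdb1. Vmn1r73 had 12 Kap1 and 0 Setdb1 peaks. Type 2 receptors had 3.58 times (188 peaks) and 1.40 times (47 peaks), led by Vmn2r23 with 12 Kap1 and 3 Setdb1 peaks.

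Of the families read, defensin genes were the densest in Kap1. Defensin genes had 11.1 times the Kap1 mean (9.26 to 13.3, 118 peaks, 114 of them on chromosome 8) and 1.76 times that of Setdb1 (1.01 to 3.08, 12 peaks). For Kap1 the ratio was 6.58 with peaks of 150 bp only, and 1.40 over the 18 defensin genes on other chromosomes (4 peaks), where that of Setdb1 was 2.73 (5 peaks). For Setdb1 it was 0.806 with gene bodies alone. Defb33 had 11 Kap1 and 2 Setdb1 peaks and Defb15 had 10 and 0. Immunoglobulin and T cell receptor segments, which are joined only in lymphocytes, had 4.34 times for Kap1 (270 peaks) and 1.43 times for Setdb1 (57 peaks). T cell receptor segments led there, with 12 Kap1 peaks at Trav21-dv12 and 11 at Trdv1, with 1 Setdb1 peak at each. The windows of these 2 neighbouring segments overlap, so their peaks are not separate counts.

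Genes of liver metabolism fell on both sides. Cytochrome P450 genes had 1.97 times the Kap1 mean and 1.17 times that of Setdb1. Of the 79 Kap1 peaks 46 were on chromosome 19, which holds the Cyp2c drug and steroid hydroxylases, where Cyp2c66 had 9 Kap1 peaks and Cyp2c29 had 8, with 0 Setdb1 peaks at both. Without chromosome 19 the ratios were 1.06 for Kap1 and 1.31 for Setdb1. Conjugation enzymes had 1.74 times for Kap1 and 0.906 times for Setdb1, with 8 Kap1 peaks at the sulfotransferase gene Sult2a3 and 7 at Sult2a7, and without chromosome 7 the ratios were 0.388 for Kap1 and 0.934 for Setdb1. Major urinary protein genes, highly expressed in male mouse liver, had 13 Kap1 and 0 Setdb1 peaks, and for the count of 0 a limit of 3 peaks is 0.934 times the mean, while the Wilson interval reaches 1.20 times. Complement and coagulation genes had 3 Kap1 peaks (0.193 times) and 7 Setdb1 peaks (0.704 times). Bile acid and cholesterol genes had 4 Kap1 peaks (0.220 times) and 6 Setdb1 peaks (0.516 times), among them 3 Setdb1 peaks at Abca1, the cholesterol exporter, and 2 Kap1 peaks at Srebf2, a regulator of sterol synthesis. Apolipoprotein genes had 0 peaks of either, for which a limit of 3 peaks is 1.37 times the Setdb1 mean and 0.874 times the Kap1 mean, and the Wilson intervals reach 1.75 and 1.12 times. Solute carrier genes were at the mean for Setdb1 (0.999 times, 153 peaks) and below it for Kap1 (0.589 times, 141 peaks), and ribosomal protein genes had 0.735 and 0.353 times. Clustered protocadherins, which give neurons their identity, were the family with the highest Setdb1 ratio, 1.93, on 8 peaks (0.976 to 3.80), and had 0.924 times for Kap1 on 6 peaks.

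Further families gave few peaks. Imprinted genes had 17 Setdb1 peaks (0.697 times) and 36 Kap1 peaks (0.944 times), with 9 of Kap1 at Snrpn, 8 at Calcr and 7 at Rasgrf1, and 3 of Setdb1 at Kcnq1. The Hox genes of body patterning had 1 Setdb1 and 7 Kap1 peaks, and all 7 were on chromosome 15, around Hoxc4 and Hoxc5. Keratin genes had 8 and 11 peaks, histone genes 1 and 2, and serpin a genes 3 and 1. Partner genes of the KRAB complex were below the mean for both, with 2 Setdb1 peaks (0.226 times) and 5 Kap1 peaks (0.361 times). A Kap1 peak was in the window of 5 of the 22 genes (22.7%), near the 23.3% of all protein-coding genes. These 5 were Cbx5, Dnmt1, Dnmt3a, Ehmt1 and Suv39h2, with 1 Kap1 peak each, which encode readers and writers of silencing marks. The Setdb1 gene itself lay 126152 bp from the nearest Setdb1 peak and 324301 bp from the nearest Kap1 peak. Trim28 lay 12512 bp from a Kap1 peak and 218361 bp from a Setdb1 peak. Apob and Apoc1, apolipoprotein genes of lipid transport, had no peak of either factor within 10 kb, at 142814 bp and 73686 bp from Setdb1 and 302934 bp and 122436 bp from Kap1.

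The genes with the most peaks differed in length between the factors. Setdb1 peaks were most numerous in very long genes, with 23 peaks in Cntnap2, 22 in Dlg2, 17 in Csmd3, 17 in Fgfr2 as annotated and 16 in Lingo2, and Kap1 had 21, 6, 11, 7 and 17 peaks in them. Per length these were 1.02 Setdb1 peaks per 100 kb in Cntnap2, 1.12 in Dlg2 and 0.574 in Fgfr2, against 0.571 over the genome. The 10 genes with the most Setdb1 peaks were 892 to 4435 kb long and the 10 with the most Kap1 peaks 81.1 to 699 kb. Fgf14, a fibroblast growth factor homologue, had 57 Kap1 and 8 Setdb1 peaks, the endolysosomal channel gene Tpcn2 had 32 and 1, Ccdc7b 30 and 1, the receptor kinase gene Grk5 28 and 0 and Pebp4 28 and 2. Among genes of at least 5 kb with at least 4 peaks, Setdb1 reached 16.2 peaks per 100 kb in Tubgcp6 (4 peaks, Kap1 0), a component of the gamma-tubulin complex, and 11.1 in Grhl1 (5 peaks, Kap1 5), an epidermal transcription factor. Kap1 reached 107 per 100 kb in Gm6040 (6 peaks, Setdb1 0), 94.8 in Noc2l (11 peaks, Setdb1 0) and 65.8 in Zfp985 (21 peaks, Setdb1 0). The median length of genes with a Setdb1 peak in the body was 79.8 kb and of those with a Kap1 peak 52.0 kb, against 17.6 kb over all protein-coding genes. Of the 3052 genes with Setdb1 in the body 38.3% also had Kap1, which is 36.9% of the 3164 genes with Kap1. Over all protein-coding genes 15.2% had Kap1 and 14.7% Setdb1 in the body. A longer gene meets a peak of either list more easily, and no share at matched gene length was taken. The part of gene length in this difference was not tested.

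Few genes had either factor at the start site. Within 1 kb of a start site of a protein-coding gene, Setdb1 had a peak at 250 genes (1.20%) and Kap1 at 492 (2.36%). Both were found at 19 genes, so that 7.60% of the genes with Setdb1 (4.92% to 11.6%) also had Kap1, against 2.36% of all genes. At 7 of these a Setdb1 and a Kap1 peak shared bases, namely 4921501E09Rik, AW822073, Gm10800, Gm14401, Sp140, Vmn1r72 and Zfp984. At the olfactory gene Olfr1112 the Kap1 peak lay 6 bp from the Setdb1 peak. Others of the 19 were the heart factor gene Tbx20, the endocrine factor gene Rfx6, Thbs4 and Arhgap9, with gaps of 113, 601, 858 and 289 bp. At Olfr1199, Olfr605, Gm4858 and Grhl1 the gaps were 2195, 2283, 4567 and 9182 bp. Such gaps are too long for 1 start site, so there the factors lay at different start sites of the gene. An old H3K14ac peak lay at the start of 16.4% of the genes with Setdb1 and 26.8% of those with Kap1, against 27.6% of all genes. Among cell type markers, H3K14ac lay at the start of 3 of 10 hepatocyte marker genes (Apoa1, Apob, Ttr), 0 of 4 of Kupffer cells, 0 of 4 of endothelium, 0 of 3 of stellate cells, 1 of 3 of cholangiocytes (Sox9) and 0 of 3 of T and B cells, and no marker gene had Setdb1 or Kap1 there. The hepatocyte share is near that of all genes, so these counts do not check the tissue.

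Few Setdb1 peaks lay on a Kap1 peak. The median distance of a Setdb1 peak to the nearest Kap1 peak, edge to edge, was 61.4 kb, with quartiles of 16.6 and 194 kb. Of the 13678 Setdb1 peaks 249 (1.82%, 1.61% to 2.06%) had 1 bp or more in common with Kap1. This was 5.08 times the share of genome positions, 0.358%, at which a window of 200 bp would touch one. Within 1 kb lay 4.66% (4.32% to 5.02%) against 1.97% of positions, within 10 kb 18.2% (17.5% to 18.8%) against 12.1%, and within 100 kb 61.2% (60.4% to 62.1%) against 52.2%. In the other direction 252 Kap1 peaks (1.18%, 1.04% to 1.33%) shared bases with Setdb1, 5.84 times the share of positions, and the median distance was 42.5 kb. More than 500 kb from any Kap1 peak lay 8.63% of Setdb1 peaks (8.17% to 9.11%), against 11.8% of positions. With peaks of the commonest widths alone, 148 of 13426 Setdb1 peaks (1.10%, 0.939% to 1.29%) shared bases with Kap1, 4.12 times the share of positions. When at least 50% of both peaks had to overlap, the share was 1.04%, and with gaps of up to 500 bp it was 3.37%.

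**Figure D4:**
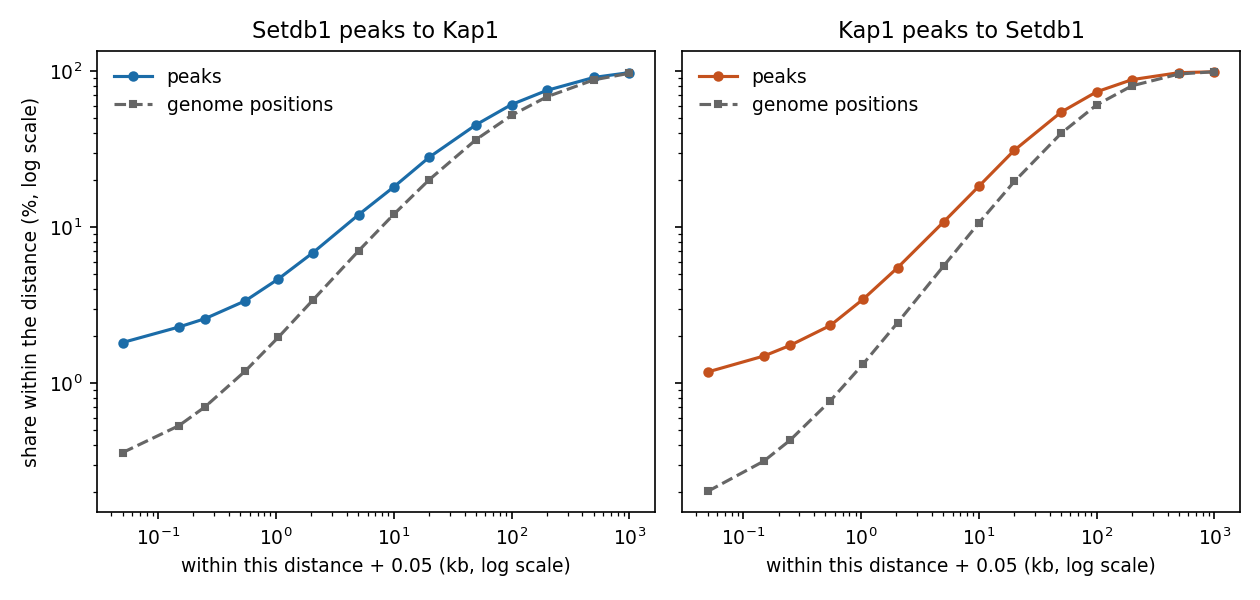
Share of peaks (vertical log axis, %) that lie within a distance of the nearest peak of the other factor (horizontal log axis, kb, shifted by 0.05), for Setdb1 peaks on the left and Kap1 peaks on the right; grey squares are the share of genome positions. Peaks lie above positions at short distances, by 5.08 and 5.84 times at shared bases, and the curves meet towards 1000 kb.

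Proximity varied with place. Within 10 kb of Kap1 lay 24.6% of Setdb1 peaks at start sites (21.3% to 28.4%), 19.4% of those between genes (18.5% to 20.3%) and 15.5% of those in introns (14.6% to 16.5%). By family, it was 37.5% of the 120 Setdb1 peaks at zinc finger genes (29.4% to 46.4%), 61.7% of 47 at vomeronasal type 2 receptors (47.4% to 74.2%) and 57.6% of 33 at type 1 receptors (40.8% to 72.8%). At olfactory receptors, where Setdb1 and Kap1 had similar densities, it was 27.0% of 222 (21.6% to 33.2%), and at solute carriers 15.7% of 153 (10.8% to 22.3%). By chromosome the share of Setdb1 peaks within 10 kb ran from 7.85% on chromosome 11, with 1 shared site, to 25.6% on chromosome 4, with 31. These feature classes, families and chromosomes differ in Kap1 density and have no background of positions of their own here. Proximity and Kap1 density thus cannot be told apart in them.

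The 249 shared sites were spread over 174 bins, and 74 of them (29.7%, 24.4% to 35.7%) were in the 70 bins rich in both factors, which held 7.92% of all Setdb1 peaks. These bins were chosen for many peaks of both factors and held 13.7% of the Kap1 peaks. A higher share of shared sites there is thus tied to the choice of bins. The zinc finger bin of chromosome 4 held 10 shared sites. It was followed by chr3:106000001-107000000, around the chitinase-like genes Chil3, Chil4 and Chia1, and chr16:3000001-4000000, with 7 each. Windows of zinc finger genes held 14 shared sites, of vomeronasal type 1 and type 2 receptors 4 each, of defensins 3 and of olfactory receptors 2. By feature class the shared sites resembled the other Setdb1 peaks, with 53.4% between genes (47.2% to 59.5%) against 54.4%, 36.5% in introns (30.8% to 42.7%) against 38.1% and 5.62% at start sites (3.38% to 9.22%) against 4.07%.

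Other readouts differed at the shared sites. An old H3K14ac peak was found at 51 of the 249 (20.5%, 15.9% to 25.9%) and at 0.797% of the other Setdb1 peaks (0.660% to 0.962%). A young Setdb1 peak was found at 20.5% (15.9% to 25.9%) and 2.80% (2.53% to 3.09%), and a young Kap1 peak at 40.2% (34.3% to 46.4%) and 2.48% (2.23% to 2.76%). The last is tied to the old Kap1 peak that defines these sites, and among old Kap1 peaks it was 40.5% with Setdb1 (34.6% to 46.6%) and 16.8% without (16.3% to 17.3%). Width is tied to the choice as well, since a wide peak meets another more easily, and 32.5% of the shared Setdb1 peaks were over 200 bp against 1.27% of the others. Shared Setdb1 peaks were more often of repeated sequence than the other Setdb1 peaks, with 14.9% (10.98% to 19.8%) against 3.16% (2.87% to 3.47%). Among Kap1 peaks the intervals overlapped, with 10.7% (7.47% to 15.1%) of those with Setdb1 against 9.12% (8.74% to 9.51%) of the others. Among the 148 shared sites with both peaks of the commonest width, H3K14ac was found at 4 (2.70%, 1.06% to 6.74%) against 0.723% of the other Setdb1 peaks of 200 bp. Young Setdb1 was found at 4.05% (1.87% to 8.56%) against 2.77%. Young Kap1 was found at 14.2% of the Kap1 peaks of these sites (9.47% to 20.7%) and at 9.71% of the other Kap1 peaks of 150 bp (9.29% to 10.2%). The excess of H3K14ac, young Setdb1 and young Kap1 thus lay mainly at wide peaks. On the side of Kap1, H3K14ac was found at 21.0% of the 252 peaks with Setdb1 (16.5% to 26.5%) and at 4.97% of the others (4.68% to 5.27%). At the commonest widths these were 2.70% (1.06% to 6.74%) and 1.92% (1.73% to 2.13%).

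**Figure D5:**
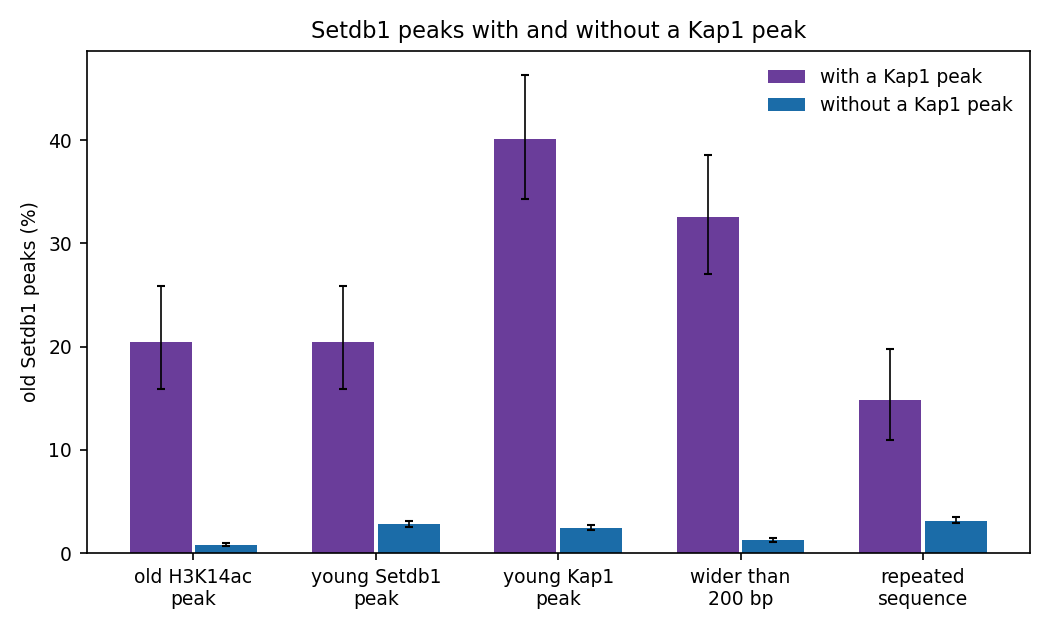
Share of old Setdb1 peaks (vertical axis, %) that hold each feature, for the 249 with a Kap1 peak (purple) and the 13429 without (blue), with 95% Wilson intervals; repeated sequence means at least 50% of the 31-base words more than once in the genome. Each of the 5 shares is higher with Kap1, for example 20.5% against 0.797% for old H3K14ac.

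At 51 sites all 3 lists met. Of their Setdb1 peaks 45 were wider than 200 bp, and at 14 both edges of the Setdb1 and Kap1 peaks lay within 10 bp of each other, which held at 15 of all 249 shared sites. A peak of 200 bp and one of 150 bp cannot meet this limit, and such pairs made up 148 of the 249 sites but 4 of the 51. Within 100 bp the shares were alike, 27 of the 51 (52.9%) and 126 of the 249 (50.6%). The 51 sites lay in introns (17), between genes (26), at start sites (4) and in exons (4), and 19 were inside protein-coding genes. Among these were Mroh2a with a Setdb1 peak of 2769 bp inside a Kap1 peak of 9837 bp, Trpm8, the cold receptor channel of sensory neurons, with peaks of 1325 and 3857 bp, and Sp140, a nuclear body protein of immune cells, with peaks of 340 and 150 bp. Others were Camk1d, Aida, Peak1, Chia1, Zfp980, Zfp981, Filip1l, Kctd16, Fbxw4, Tmem267 and Csf2ra, besides Mdga2 and Wnk2 above. At Gm10800 on chromosome 2 the Setdb1 peak of 1249 bp lay inside a Kap1 peak of 1312 bp, and near Ly6c2 on chromosome 15 the peaks of Setdb1 and Kap1 had widths of 1691 and 1690 bp. At least 50% of the 31-base words were repeated at 10 of the 51 (19.6%, 11.02% to 32.5%), and the part of repeated sequence in these sites was not tested.

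The lists differed from the genome in base composition. The median GC content was 44.5% in Setdb1 and 46.7% in Kap1 peaks, and 42% in windows set every 50 kb. The median soft-masked share was 14% and 17.7%, against 22% in windows of 200 bp and 20% in those of 150 bp. Repeated sequence, as defined above, made up 3.37% of Setdb1 peaks (3.08% to 3.69%) and 9.14% of Kap1 peaks (8.76% to 9.53%), against 14.6% and 14.9% of windows of 200 and 150 bp. In peaks of the commonest widths, 6 CA repeats on either strand were found in 0.685% of Setdb1 peaks against 3.21% of windows of 200 bp, and in 0.398% of Kap1 peaks against 2.47% of windows of 150 bp. The letters AGGTCA, the core of nuclear receptor sites, searched on both strands, were found in 11.1% of Setdb1 peaks and 11.1% of windows, and in 7.95% of Kap1 peaks (7.57% to 8.35%) against 8.38% (8.14% to 8.63%). These letters are a description and not a site of binding.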

How the data were processed

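The deposited peak lists give chromosome, start and end only, with no count, score or signal column. According to the study's methods, the authors used BWA for alignment to mm10 and Picard to discard duplicates. Reads with a unique position were retained, replicates were pooled, and PeakSeq called peaks against input.

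Starts, counted from 0 in the lists, are printed counted from 1, and chromosomes X and Y were not used. Bins were 1 Mb, with a peak placed by its midpoint, and 70 bins with over 50% undetermined bases were left out. The bins left out held 20 Setdb1 and 676 Kap1 peaks, and classes and shares of peaks by bin refer to the 2403 bins kept. Feature classes came from GENCODE basic M21, by midpoint, in the order start site within 1 kb, exon, intron, between genes. Family windows were gene bodies with 10 kb on both sides. The background of a distance was the share of genome positions at which a window of the commonest peak width would lie within it. Sequence was read from GRCm38. Named genes were those of the 5 densest bins of each list and the 8 leading bins of each opposite class, the 10 with the most peaks and the 10 with the most per 100 kb of each factor, those with both factors at the start site or all 3 lists at one site, the gene families and 4 genes of the study. Members of the families were named by their number of peaks. The members and lists were chosen with earlier results of these data known. Counting of overlaps and distances was tested on simulated data. Python 3.11.15, numpy 2.4.6, scipy 1.17.1, numba 0.67.0 and matplotlib 3.10.9 were used.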

Additional observations from a re-analysis of the deposited data

How the results depend on the processing

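Of 119 alternative settings, 86 kept the value within its interval or the limit set for it, 32 moved it and 1 turned its direction outside that interval. Values near 1 also crossed 1 within their intervals. Setdb1 at zinc finger genes was 0.944 in gene bodies alone, 0.991 with the commonest width and 0.971 without repeated sequence. At vomeronasal type 1 receptor genes it was 0.999 without repeated sequence. The r between the factors was 0.24 to 0.27 with any 1 chromosome left out. With limits of 3 times the mean and of the mean divided by 3, the bins rich in Kap1 and poor in Setdb1, rich in Setdb1 and poor in Kap1, and rich in both numbered 11, 4 and 12, and in bins of 500 kb 106, 242 and 191. Relative to the share of bases, Setdb1 at start sites was 0.823 with protein-coding genes only, and in introns 0.860 when any base decided the class. Kap1 at start sites was 1.23 with a window of 5 kb, 1.44 by any base, 1.126 with protein-coding genes and 1.21 with peaks of the commonest width, and in introns 0.742, 0.732 and 0.722 under the first 3. Kap1 at zinc finger genes was 1.85 times the mean with the commonest width, 1.95 with peaks within 1000 bp merged and 2.13 without peaks of repeated sequence. At defensin genes Kap1 was 7.73 in gene bodies alone, 6.58 with the commonest width and 8.87 merged, and Setdb1 was 0.806 in bodies alone. The median distance from Setdb1 to Kap1 was 63.8 kb with the commonest width, 71.9 kb without bins rich in both and 65.2 kb without repeated sequence. The share of Setdb1 peaks sharing bases with Kap1 was 1.04% when at least 50% of both peaks had to overlap, 3.37% with gaps of up to 500 bp, 1.10% with the commonest width, 1.39% without bins rich in both, 1.57% without repeated sequence and 1.46% without peaks with H3K14ac. H3K14ac at shared sites was found at 2.70% with the commonest width and 14.1% with gaps of up to 500 bp. The settings that leave out repeated sequence or peaks with H3K14ac were chosen after seeing the data, and the causes of these shifts were not tested. No paired analysis was possible because each factor has 1 pooled list. Depth is unknown, so the part of depth in the number of peaks could not be measured.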
